A study of Mus musculus with 6 samples.

Results

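The genes described here are the ATP-binding cassette (ABC) transporter family, measured by RNA-seq in the mouse cell line AY-mICC. The study it comes from is on intrahepatic cholangiocarcinoma, which is bile duct cancer arising inside the liver. Members were chosen by gene symbol, Abc followed by a subfamily letter a to g and a number, with at least 10 counts in 2 or more libraries. Of 55414 genes in the table, 50 had such a symbol and 33 met the count rule. The groups were cells with a Copa knockdown (shCopa, 3 libraries) and cells whose genotype was given as control (shCon, 3 libraries). Both were kept in the same medium with serum and antibiotics, and no treatment was given. The labels do not give the hairpins used, whether they were 1 or several, or whether either population was a clone.

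ABC proteins bind and hydrolyse ATP and, in most members, use it to move a substrate across a membrane. The A and G subfamilies mostly handle lipids and sterols, the B and C subfamilies hold the classical drug and bile pumps of epithelia, the D subfamily carries fatty acids into peroxisomes, and the E and F proteins have no membrane part and act on ribosomes. In the bile duct and liver the apical pumps of the B, C and G subfamilies export bile salts, phospholipid, conjugates and drugs. As membrane proteins they are made at the endoplasmic reticulum and pass through the Golgi apparatus, between which the COPI coat, with the Copa product as its alpha subunit, carries vesicles.

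Copa was at 186, 182 and 187 CPM (counts scaled to library size) in shCopa, against 420, 517 and 527 CPM in shCon, and fell to 37.9% of the shCon level (adjusted p = 0.000149 in edgeR's quasi-likelihood test with Benjamini-Hochberg adjustment). Library totals ran from 19634938 to 24546204 estimated counts, so that a count of 0 allows up to 0.122 to 0.153 CPM in 1 library, for counting error only. Library shCon 1 stood apart from its group, with a correlation across genes of 0.9734 with shCon 2 and 0.9719 with shCon 3, where shCon 2 and 3 had 0.9898 with each other. Of the 33 members, 21 had their lowest shCon value in shCon 1, against 44.1% of all tested genes. Whether replicates were grown as separate cultures is not labelled, and the p-values rest on the spread among these libraries alone, part of which may be technical. The bile duct epithelial genes Krt19, Krt7, Krt8, Krt18, Sox9 and Spp1 were at 132 CPM or more in every library, while Epcam was at 0.177 to 0.354 CPM in shCopa and 0.429 to 0.790 CPM in shCon. The summed level of all 8 such markers was 8380 to 8840 CPM in shCopa and 11300 to 14300 CPM in shCon. Spp1 alone averaged 4610 CPM in shCopa and 6940 CPM in shCon. Of the 7 markers tested 5 fell, none rose and 2 did not pass, where 18.4% of all tested genes fell. Krt7 fell to 36.9% of the shCon level (edgeR adjusted p = 0.000373). Without shCopa 2 or shCopa 3, only 2 of these markers fell. The 6 hepatocyte markers summed to 30.3 to 32.2 CPM in shCopa and 15.0 CPM or less in shCon, with Alb and Hnf4a higher in shCopa, Ttr at 0.658 CPM in shCopa and 0.888 CPM in shCon on average (not passing) and Cyp3a11 at 0 in every library. The 6 macrophage and leukocyte markers summed to 157 to 170 CPM in shCopa and 276 to 287 CPM in shCon, most of it Csf1r, Cd14 and Cd68. Of the 5 tested on that list 2 rose, 2 fell and 1 did not pass, where 18.2% of all tested genes rose and 18.4% fell. Csf1r fell, at 87.9 CPM in shCopa and 165 CPM in shCon on average (edgeR adjusted p = 0.000885). Cd14 fell, at 50.3 CPM in shCopa and 102 CPM in shCon (adjusted p = 0.00233). Lyz2 rose, at 8.21 ± 0.225 CPM in shCopa and 1.46 ± 0.333 CPM in shCon (SD, n = 3 each, edgeR adjusted p = 0.000159). Ptprc rose too, at 0.930 to 1.26 CPM in shCopa and 0.0429 CPM or less in shCon, and Adgre1 was at 0.0443 CPM or less. The 3 T cell markers summed to 0.177 CPM or less, the 5 fibroblast markers to 2.48 to 4.61 CPM in shCopa and 3.08 to 4.16 CPM in shCon, and the 3 endothelial markers to 3.34 CPM or less in shCopa and 0.172 CPM or less in shCon. The part of these shifts in the results below was not tested, and in bulk RNA fewer cells of a type and less RNA per cell cannot be told apart.

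Of the 33 members, 13 rose in shCopa, 6 fell and 14 did not pass the adjusted p threshold of 0.05. Of all 14807 genes tested, 18.2% rose and 18.4% fell, 36.5% together, and the median log2 fold change was -0.01. Abca4, Abca13, Abcc12 and Abcg4 met the count rule through their shCopa libraries only, so a higher value there was partly set by the choice. Of the other 29, 9 rose and 6 fell, 31.0% and 20.7%, the second close to the share over all genes, and their median was -0.08. Of these 29, 4 rose and 2 fell by at least 2-fold, where 7.55% and 6.31% of all genes did. All shCopa libraries lay above all shCon libraries in 11 of the 29 and below them in 9, where 27.2% and 26.9% of all genes did. The members lay on 16 chromosomes. Among the 29, 4 of 6 C subfamily genes rose and 1 fell, with a median log2 fold change of 0.40. Of the 8 A subfamily genes among them, 2 fell and none rose, with a median of -0.56. Counted over all 33 members again, 13 rose and 12 fell without shCon 1, where 4317 and 4122 of all genes did. Of the 33, 5 rose without shCopa 1, 4 without shCopa 2 and 5 without shCopa 3, with 5 falling each time. Over all genes, 1778 rose and 1755 fell without shCopa 3. Without shCon 3, 8 of the 33 rose.

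**Figure D1:**
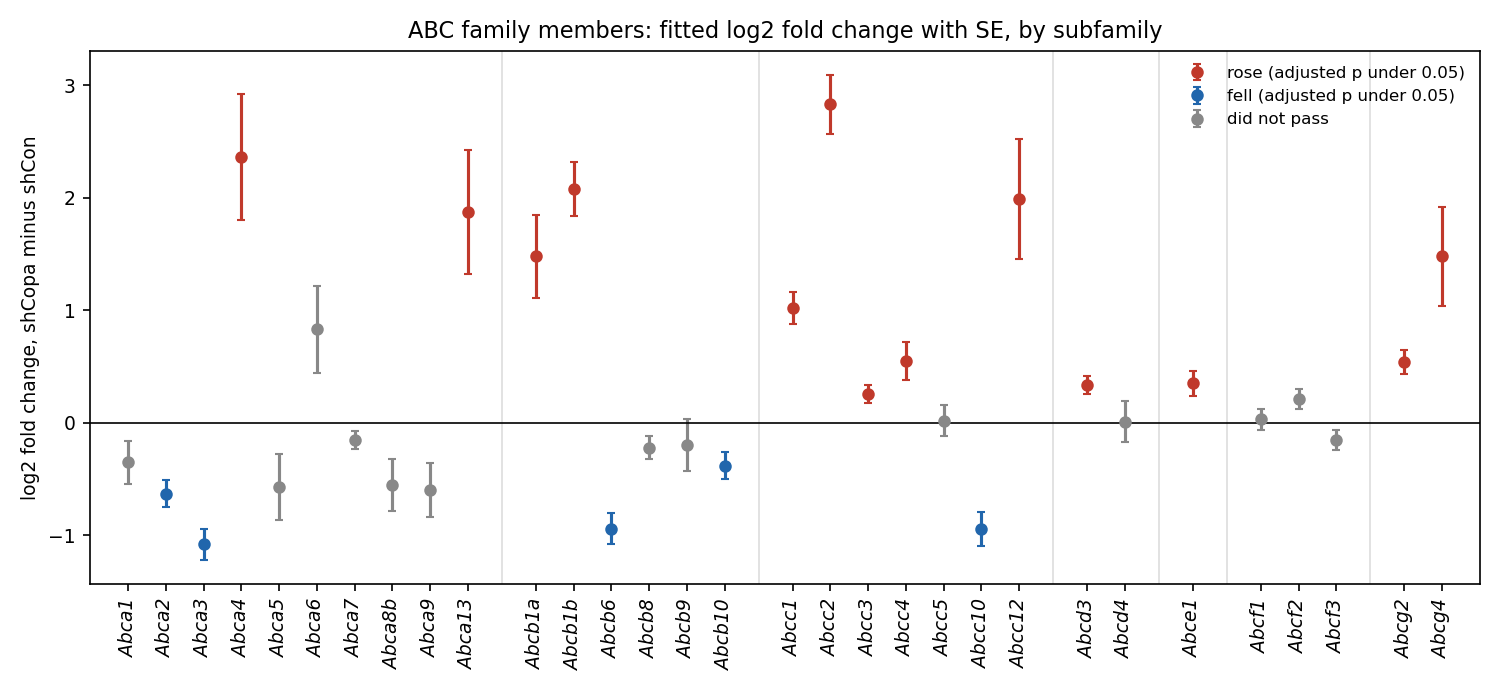
Fitted log2 fold change of 31 of the members, shCopa minus shCon, with its SE; colours mark members that rose, fell or did not pass an adjusted p of 0.05, and subfamilies A to G run from left to right. Abcc2 at 2.83 is the highest point and Abca3 at -1.08 the lowest of those shown.

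Of 9 genes on a multidrug resistance list 7 rose, but 4 without any 1 shCopa library, and the largest fitted rise of all 33 members was that of Abcc2. Abcc2 (MRP2, ENSMUSG00000025194) exports glucuronide and glutathione conjugates, bilirubin glucuronide among them, across the apical membrane into bile. It was at 29.3, 28.7 and 37.2 CPM in shCopa, against 2.69, 5.02 and 5.59 CPM in shCon. Every shCopa library was above every shCon library by a wide margin. Its mean was 31.7 ± 4.71 CPM in shCopa and 4.44 ± 1.53 CPM in shCon (SD, n = 3 each), 7.12-fold higher in shCopa (log2 fold change 2.83 ± 0.26, SE; edgeR adjusted p = 0.000288). The change was between 2.57 and 3.02 with any 1 library left out, the lowest without shCon 1.

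Abcc1 (MRP1, ENSMUSG00000023088), a basolateral exporter of glutathione and its conjugates, was at 142, 143 and 145 CPM in shCopa, against 56.2, 77.2 and 78.8 CPM in shCon. The shCopa libraries lay within 3 CPM of one another and about 2-fold above the controls, of which shCon 1 was lowest. The fitted difference was 2.03-fold (log2 fold change 1.02 ± 0.14; edgeR adjusted p = 0.00136). Abcc4 (MRP4), which exports cyclic nucleotides, prostanoids and bile salts, was at 352, 356 and 389 CPM in shCopa, against 185, 289 and 277 CPM in shCon. It rose 1.46-fold (log2 fold change 0.55 ± 0.17; edgeR adjusted p = 0.0385), or by 0.37 on the log2 scale without shCon 1, and its call was lost without shCon 3 or any 1 shCopa library (adjusted p = 0.051 to 0.131). Abcc3 (MRP3), a basolateral exporter of conjugates, was at 45.5, 46.8 and 46.4 CPM in shCopa, against 39.7, 37.8 and 38.6 CPM in shCon. Its rise was small, 1.19-fold (edgeR adjusted p = 0.0420), and did not pass without any 1 library other than shCon 1 (adjusted p = 0.102 to 0.154). Abcc5 (MRP5), an exporter of cyclic nucleotides, had 157, 156 and 160 CPM in shCopa and 122, 166 and 178 CPM in shCon, with a log2 fold change of 0.02 ± 0.14 that did not pass (edgeR adjusted p = 0.909) and that was -0.13 without shCon 1. Abcc10 (MRP7), an exporter with drug substrates, went the other way, with 7.08, 7.78 and 7.54 CPM in shCopa, against 12.4, 16.8 and 13.9 CPM in shCon. It fell to 51.9% of the shCon level (log2 fold change -0.94 ± 0.15, edgeR adjusted p = 0.00259), with no overlap between the groups. Abcc10 had counts that were not whole in all 6 libraries, so some of its reads were shared with another feature. Abcc12 (MRP9) was near the floor, at 19, 18 and 13 counts in shCopa against 5, 1 and 7 counts in shCon, and rose 3.96-fold (log2 fold change 1.99 ± 0.53; edgeR adjusted p = 0.0235). That call was lost without any 1 shCopa library.

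Promoters of 3 C subfamily genes that changed are shown because they held a short sequence, the core of the antioxidant response element. Windows of 250 bases before each RefSeq start (build GRCm38.p6) were available for 25 of the 33 members, 31 windows in all, and were searched on both strands for 4 motifs. The antioxidant response element core, TGACNNNGC, occurred in 4 of these windows, those of Abcc2, 1 of the 2 starts of Abcc10 and both starts of Abcc4, and in 10.2% of 32851 windows of all genes. The 4 windows follow 5′ to 3′ on the strand of the gene, with the matches in capitals.
Abcc2, chr19:43782058-43782307, plus strand: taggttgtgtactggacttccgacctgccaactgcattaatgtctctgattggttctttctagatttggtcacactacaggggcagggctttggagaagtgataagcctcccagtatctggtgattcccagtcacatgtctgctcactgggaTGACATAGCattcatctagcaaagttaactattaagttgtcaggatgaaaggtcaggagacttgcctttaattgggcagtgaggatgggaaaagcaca
Abcc4, first start, chr14:118676932-118677181, minus strand: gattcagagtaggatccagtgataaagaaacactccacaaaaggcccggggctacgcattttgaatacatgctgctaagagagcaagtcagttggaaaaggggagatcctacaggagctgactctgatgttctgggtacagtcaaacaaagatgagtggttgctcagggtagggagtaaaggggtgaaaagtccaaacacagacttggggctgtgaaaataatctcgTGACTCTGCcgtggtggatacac
Abcc4, second start, chr14:118706220-118706469, minus strand: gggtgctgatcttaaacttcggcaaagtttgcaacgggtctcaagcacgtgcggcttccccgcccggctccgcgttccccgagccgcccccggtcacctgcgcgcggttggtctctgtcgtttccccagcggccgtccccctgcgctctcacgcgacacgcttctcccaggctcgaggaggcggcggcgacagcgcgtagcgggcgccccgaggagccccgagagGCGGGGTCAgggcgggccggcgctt
Abcc10, chr17:46328024-46328273, minus strand: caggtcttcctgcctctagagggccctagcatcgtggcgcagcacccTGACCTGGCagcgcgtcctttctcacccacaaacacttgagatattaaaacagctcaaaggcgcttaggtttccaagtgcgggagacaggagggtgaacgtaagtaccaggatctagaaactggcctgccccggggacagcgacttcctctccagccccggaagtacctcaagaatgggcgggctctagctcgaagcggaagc
The matches began at position -98 for Abcc2, -23 and -25 for the 2 Abcc4 starts and -203 for Abcc10, counted so that -1 is the base before the start. Abcc2 and Abcc4 rose and Abcc10 fell, so the genes with these letters did not share a direction. The windows of Abcc12, which rose, of Abcc5 and of the other Abcc10 start held no match and are not shown. The other motifs were the AP-1 site TGANTCA (6.75% of all windows), the interferon-stimulated response element (GAAA and GAAA with any 2 bases between; 2.98%) and the LXR direct repeat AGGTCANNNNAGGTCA (0.0152%), and none of the 31 windows held a match to them. The LXR repeat was searched as exact letters, which only 5 of all 32851 windows held. Its absence from the 31 windows therefore says little, and looser forms of the site were not searched. Among the members for which no window was used were Abca6, Abcb8, Abcc1, Abcc3, Abcd4 and Abcg4.

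Both genes of the P-glycoprotein drug pump rose. In mice this exporter of many hydrophobic drugs is made from a pair of neighbouring genes on chromosome 5, Abcb1a and Abcb1b. Abcb1b (ENSMUSG00000028970) was at 6.91, 6.92 and 6.42 CPM in shCopa, against 1.07, 2.02 and 1.68 CPM in shCon. It was 4.22-fold higher in shCopa (log2 fold change 2.08 ± 0.24; edgeR adjusted p = 0.000687), and every shCopa library was more than 3-fold above the highest shCon library. Abcb1a (ENSMUSG00000040584) was at 1.64, 1.38 and 1.57 CPM in shCopa, against 0.279, 0.644 and 0.699 CPM in shCon. The groups did not overlap and the fitted rise was 2.79-fold (log2 fold change 1.48 ± 0.37; edgeR adjusted p = 0.0170), but its call was lost without any 1 shCopa library (adjusted p = 0.0526 to 0.0662). The genes resemble each other closely and reads were divided between them: their estimated counts were fractions that summed to a whole number, to 2 decimals, in 4 of 6 libraries, for example 37.22 and 155.78, or 193 together, in shCopa 1. Summed, the pair was at 8.55, 8.30 and 7.99 CPM in shCopa, against 1.35, 2.66 and 2.38 CPM in shCon. Abcb1b took 80.7% to 83.3% of the sum in shCopa and 71.3% to 80.6% in shCon. The next gene along that chromosome, Abcb4, the phospholipid exporter of the bile canaliculus, was below the count rule, with 7, 4 and 5 counts in shCopa and 2, 0 and 0 counts in shCon. The windows before both starts are given because the paralogs moved in the same direction; neither held a match to the 4 motifs, so no base is in capitals.
Abcb1b, chr5:8797897-8798146, plus strand: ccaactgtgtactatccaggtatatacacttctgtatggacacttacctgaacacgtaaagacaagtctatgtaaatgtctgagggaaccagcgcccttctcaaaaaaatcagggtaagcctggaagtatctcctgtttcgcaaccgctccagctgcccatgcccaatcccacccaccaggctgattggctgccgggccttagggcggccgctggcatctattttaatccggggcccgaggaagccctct
Abcb1a, chr5:8566841-8567090, plus strand: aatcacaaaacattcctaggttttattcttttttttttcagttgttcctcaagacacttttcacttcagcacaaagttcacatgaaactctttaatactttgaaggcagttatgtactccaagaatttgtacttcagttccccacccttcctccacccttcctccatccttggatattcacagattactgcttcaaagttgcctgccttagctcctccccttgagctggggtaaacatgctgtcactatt

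Abcg2 (BCRP, ENSMUSG00000029802), a transporter that works as a dimer and exports drugs, urate and porphyrins, was at 46.9, 47.4 and 56.0 CPM in shCopa, against 32.2, 35.7 and 35.4 CPM in shCon. It rose 1.45-fold (log2 fold change 0.54 ± 0.11; edgeR adjusted p = 0.00657) with no overlap between the groups. Its call was kept with any 1 library left out (log2 fold change 0.45 to 0.59), though with offsets for the trends of a library on transcript length and GC content it was 0.40 (adjusted p = 0.0669). Abcb11, the bile salt export pump, is held to be a hepatocyte gene and was just outside the count rule, with 11, 8 and 6 counts in shCopa and 3, 0 and 0 counts in shCon. On the multidrug resistance list 1 gene fell (Abcc10) and 1 did not pass (Abcc5), and the median log2 fold change was 0.55. Over all genes tested, 18.2% rose and 18.4% fell. The number on the multidrug resistance list that rose was 5 without shCon 3 and 7 without shCon 1. Over all genes, 2691 rose with all 6 libraries and 4317 without shCon 1. Of 8 apical genes of the bile canaliculus, the 4 above the filter, Abcb1a, Abcb1b, Abcc2 and Abcg2, rose, and 4 were too low to test (Abcb4, Abcb11, Abcg5 and Abcg8).

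**Figure D2:**
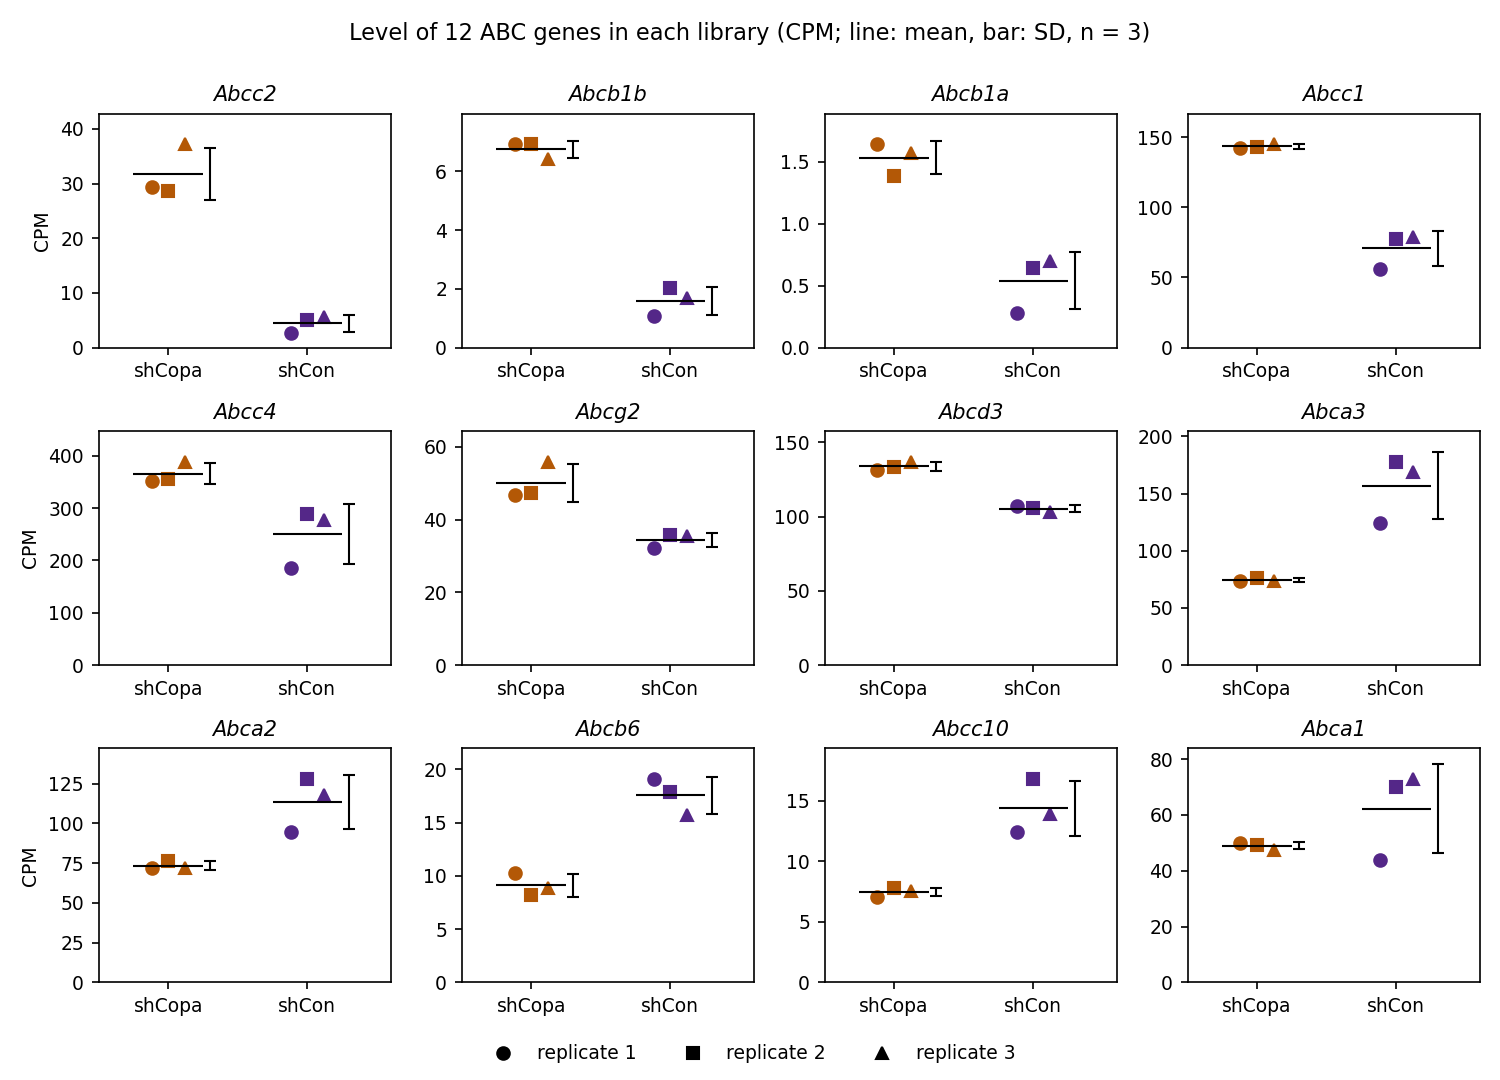
CPM of 12 members in each library, with shCopa left of shCon in every panel; symbols mark the replicate number, lines the mean and bars the SD (n = 3), and each vertical axis starts at 0. For Abcc2 the shCopa libraries lie between 28.7 and 37.2 CPM and the shCon libraries between 2.69 and 5.59 CPM, while for Abca1 shCon 1 at 43.8 CPM lies below all shCopa libraries.

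The lipid transporters of the A subfamily were lower or did not pass, apart from the pair near the floor. Abca3 (ENSMUSG00000024130), which loads surfactant phospholipid into lamellar bodies in lung and is found at lower levels in other epithelia, was at 73.8, 76.3 and 73.5 CPM in shCopa, against 124, 178 and 169 CPM in shCon. The shCopa libraries were close together and well below even shCon 1, the lowest control. It fell to 47.4% of the shCon level (log2 fold change -1.08 ± 0.14; edgeR adjusted p = 0.00129). Abca3 had counts that were not whole in all 6 libraries, so some of its reads were shared with another feature; its neighbour on chromosome 17, Abca17, had 5, 3 and 3 counts in shCopa and 2, 0 and 1 counts in shCon. Abca2, a lysosomal lipid transporter best known from brain, was at 72.1, 76.6 and 71.8 CPM in shCopa, against 94.4, 128 and 118 CPM in shCon. It fell to 64.8% (log2 fold change -0.63 ± 0.12; edgeR adjusted p = 0.00690), again with no overlap. Abca7, a phospholipid transporter studied in Alzheimer's disease, was at 41.2, 43.6 and 43.2 CPM in shCopa and 45.8, 49.1 and 47.0 CPM in shCon, a log2 fold change of -0.15 ± 0.08 that did not pass (edgeR adjusted p = 0.204). It was -0.18 without shCon 1 (adjusted p = 0.0398) and 0.03 with the length and GC offsets.

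Abca1 (ENSMUSG00000015243), which passes cholesterol and phospholipid to apolipoprotein A-I, depended on 1 control library. It was at 50.1, 49.3 and 47.5 CPM in shCopa, against 43.8, 70.1 and 72.9 CPM in shCon. With all 6 libraries the log2 fold change of -0.35 ± 0.19 did not pass (edgeR adjusted p = 0.186), since shCon 1 lay below the shCopa libraries while shCon 2 and 3 lay above. Without shCon 1 it was -0.55 (adjusted p = 7.16e-07), and with the length and GC offsets -0.50 (adjusted p = 0.000349). The first of these p-values rests on shCon 2 and 3 as the only controls. The control on the other side was taken out, so a smaller p-value was partly set by that choice. Its partners in sterol efflux were low. Abcg1, which passes cholesterol to lipoprotein particles, had 7, 7 and 3 counts in shCopa and 5, 17 and 9 counts in shCon, just outside the count rule. Abcg4, its relative known from brain, lay just inside it, with 10, 16 and 9 counts in shCopa and 3, 4 and 6 counts in shCon. Its rise (log2 fold change 1.48 ± 0.44; edgeR adjusted p = 0.0343) was lost without any 1 of the 6 libraries (adjusted p = 0.0542 to 0.147). Abcg5 and Abcg8, the partners of the plant sterol exporter, had at most 5 and 6 counts in a library.

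A run of neighbouring A subfamily genes on chromosome 11, Abca8b, Abca8a, Abca9, Abca6 and Abca5, showed the same dependence on shCon 1 in 3 of its members. Abca5, a lysosomal member, was at 5.93, 5.66 and 6.37 CPM in shCopa and 5.11, 9.62 and 11.9 CPM in shCon. Abca8b was at 8.99, 8.30 and 7.64 CPM in shCopa and 8.18, 13.6 and 14.7 CPM in shCon. Abca9 was at 3.94, 3.11 and 3.29 CPM in shCopa and 3.76, 5.20 and 6.70 CPM in shCon. In each of the 3, shCon 1 lay among or below the shCopa libraries and shCon 2 and 3 lay above them. Their log2 fold changes of -0.57, -0.55 and -0.60 did not pass (edgeR adjusted p = 0.164, 0.0954 and 0.0911), and without shCon 1 they were -0.85, -0.77 and -0.79 (adjusted p = 0.000103, 5.29e-05 and 0.00237). As for Abca1, smaller p-values were partly set by taking out that control. Abca6 in the same run had the opposite sign, at 2.30, 1.86 and 1.72 CPM in shCopa and 0.511, 1.29 and 1.48 CPM in shCon. Its log2 fold change of 0.83 ± 0.39 did not pass with all libraries (edgeR adjusted p = 0.133) or without shCon 1 (0.50, adjusted p = 0.183). Abca8a had a single count in shCopa 1 and none elsewhere. The members near the floor that rose were Abca4, the retinal photoreceptor transporter, with 14, 28 and 9 counts in shCopa and 4, 2 and 4 counts in shCon (log2 fold change 2.36 ± 0.56; edgeR adjusted p = 0.0137, and 0.0601 without shCopa 2), and Abca13, a very large member, with 25, 17 and 11 counts in shCopa and 2, 9 and 4 counts in shCon (1.87 ± 0.55; adjusted p = 0.0320, and 0.0573 to 0.124 without shCon 3 or any 1 shCopa library). Over the A subfamily without Abca1, 2 of 9 tested genes fell and 2 rose (Abca4 and Abca13, members through shCopa only), and without shCon 1, 6 fell and 2 rose. Calls also became more frequent over the whole table. With all 6 libraries 2720 genes fell (18.4%) and 2691 rose (18.2%), and without shCon 1, 4122 fell and 4317 rose.

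**Figure D3:**
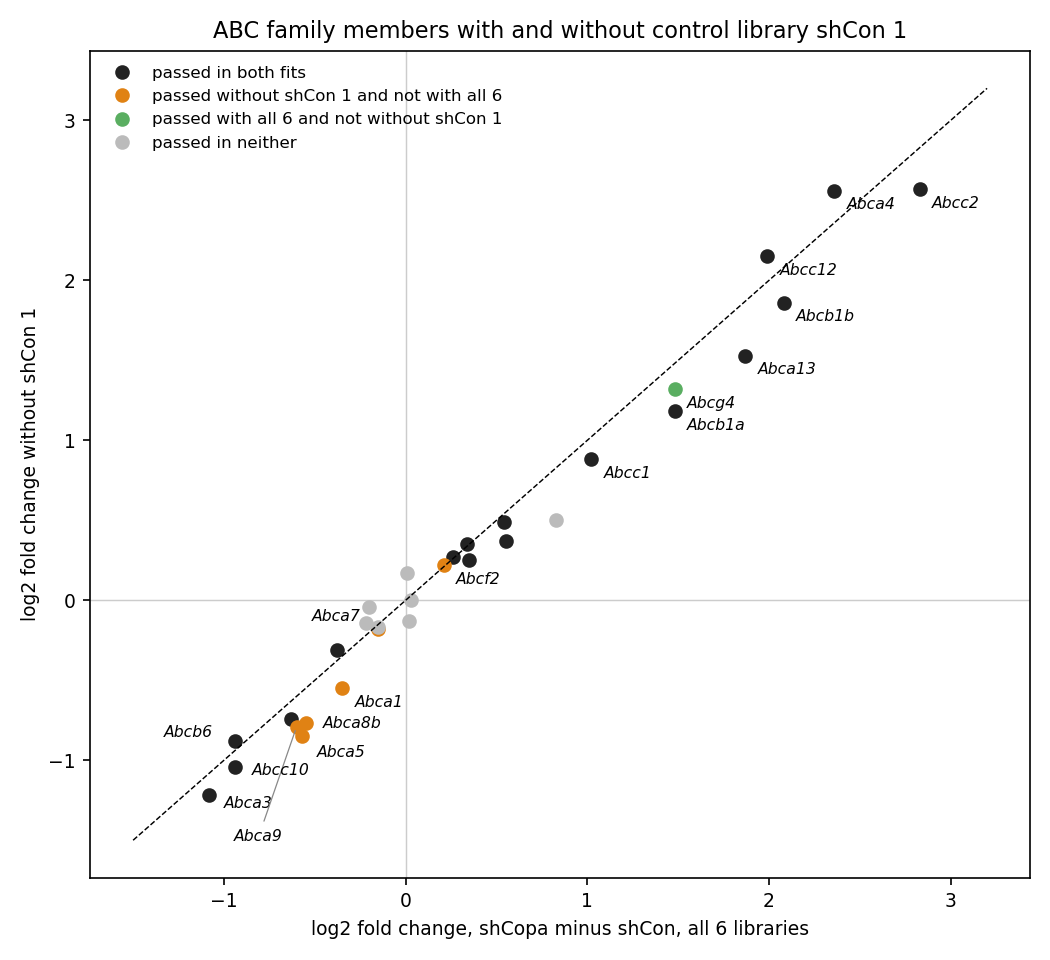
Log2 fold change, shCopa minus shCon, of 31 members with all 6 libraries (horizontal) and without the control library shCon 1 (vertical); the dashed line marks equal values. Abca1, Abca5, Abca8b and Abca9 lie below the line at -0.55 to -0.85 and pass without shCon 1 but not with all 6 libraries, as do Abca7 and Abcf2.

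In the D subfamily 1 member rose, 1 fell and 1 did not pass. Abcd3 (PMP70), an importer of branched and dicarboxylic fatty acids, was at 131, 133 and 137 CPM in shCopa, against 107, 106 and 103 CPM in shCon. It rose 1.26-fold (log2 fold change 0.34 ± 0.08; edgeR adjusted p = 0.0131), a call lost without any 1 shCopa library (adjusted p = 0.0511 to 0.0652). Abcd4, which takes part in the exit of vitamin B12 from lysosomes, was at 5.22, 5.01 and 5.46 CPM in shCopa and 6.36, 4.51 and 4.77 CPM in shCon, a log2 fold change of 0.01 ± 0.18 that did not pass. Of 9 peroxisome genes that work beside them, 3 fell, 6 were not called and none was called higher, with a median of -0.16. Over all genes, 18.2% rose and 18.4% fell. Hsd17b4, an enzyme of peroxisomal beta-oxidation, fell by 0.63 on the log2 scale (edgeR adjusted p = 0.000989), and the thiolase gene Acaa1a fell by 0.87 (adjusted p = 0.0178), with 111 CPM in shCon 1 beside 61.1 and 68.3 CPM in shCon 2 and 3.

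The B subfamily transporters of mitochondria, which serve heme and iron-sulfur cluster metabolism, were lower or did not pass. Abcb6, a transporter linked to porphyrins and also found at lysosomes and the cell surface, was at 10.3, 8.17 and 8.90 CPM in shCopa, against 19.1, 17.9 and 15.7 CPM in shCon. It fell to 52.0% (log2 fold change -0.94 ± 0.14; edgeR adjusted p = 0.00196), with no overlap. Abcb10, which acts in heme synthesis, was at 17.2, 15.1 and 16.9 CPM in shCopa, against 23.2, 22.0 and 18.7 CPM in shCon. It only just passed (log2 fold change -0.38 ± 0.12; edgeR adjusted p = 0.0486), and did not pass without shCon 2 or any 1 shCopa library (adjusted p = 0.103 to 0.178) or with other scaling factors. Abcb8, a transporter of the inner mitochondrial membrane, was at 48.9, 54.0 and 50.7 CPM in shCopa and 65.8, 58.0 and 54.8 CPM in shCon, -0.22 ± 0.10 on the log2 scale, and did not pass (edgeR adjusted p = 0.133). Of 12 genes of heme and iron-sulfur synthesis, none passed in the higher direction, 2 fell and 10 were not called, with a median of -0.22. The 2 of 12 that fell were near the share over all genes, 18.4%. Urod, an enzyme of porphyrin synthesis, fell by 0.78 on the log2 scale (edgeR adjusted p = 0.0233). Without shCon 1, 3 of the list fell and 3 rose, where 4122 of all genes fell and 4317 rose.

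The E and F genes, most of them among the most abundant members, gave 1 small rise and no fall. Abce1, which splits ribosomes after termination, was at 165, 159 and 150 CPM in shCopa, against 106, 132 and 133 CPM in shCon. It rose 1.28-fold (edgeR adjusted p = 0.0420), a call lost without shCon 2, shCon 3 or any 1 shCopa library (adjusted p = 0.0585 to 0.143). Abce1 and Abcf2 had counts that were not whole in all 6 libraries, so some of their reads were shared with other features. Abcf1, a translation factor that binds ribosomes, was at 158, 166 and 157 CPM in shCopa and 152, 166 and 153 CPM in shCon, with a log2 fold change of 0.03 ± 0.09 that did not pass. Abcf2, a relative of Abcf1, was at 152, 167 and 169 CPM in shCopa and 142, 142 and 136 CPM in shCon, groups that did not overlap, with a log2 fold change of 0.21 ± 0.09 that did not pass (edgeR adjusted p = 0.0894; 0.00475 without shCon 1). Abcf3, the third F gene, was at 33.5, 34.7 and 37.3 CPM in shCopa and 38.7, 37.6 and 41.1 CPM in shCon, -0.15 ± 0.09 on the log2 scale, and did not pass. Of 9 genes that work with these proteins on ribosomes, 2 rose (Etf1, the release factor, by 0.66 on the log2 scale, and Eif2ak4, the kinase GCN2, by 0.39; edgeR adjusted p = 0.00102 and 0.0303), 1 fell (Eif2d, -0.33; adjusted p = 0.0315) and 6 did not pass. Without shCon 1, 4 of them rose and 1 fell, and without any 1 shCopa library 1 rose and none fell. With all 6 libraries, 18.2% of all genes rose and 18.4% fell (2691 and 2720 genes), and without shCon 1, 4317 rose and 4122 fell.

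ABC genes whose names do not follow the symbol pattern were read beside the members. Tap1, a subunit of the peptide transporter that loads MHC class I molecules, was at 83.7, 90.6 and 97.8 CPM in shCopa, against 37.5, 40.1 and 35.5 CPM in shCon, and rose (log2 fold change 1.27 ± 0.10; edgeR adjusted p = 0.000141). Its partner Tap2 was at 32.2, 33.2 and 33.1 CPM in shCopa, against 51.6, 41.9 and 41.3 CPM in shCon, and fell (-0.45 ± 0.11; adjusted p = 0.0165). The subunits of 1 heterodimer thus differed in direction, and the call of Tap2 was lost without any 1 shCopa library. Abcb9 (TAPL), the lysosomal relative of these genes, was at 2.21, 2.55 and 2.98 CPM in shCopa and 3.62, 2.92 and 2.38 CPM in shCon and missed the threshold (log2 fold change -0.20 ± 0.23; edgeR adjusted p = 0.529). Cftr, the chloride channel of the bile duct and a C subfamily protein, was at 14.1, 13.9 and 13.1 CPM in shCopa, against 6.92, 10.0 and 9.08 CPM in shCon, and rose (0.66 ± 0.16; adjusted p = 0.0155). The call of Cftr was lost without shCopa 1 or shCopa 2. Of Tap1, Tap2 and Cftr, 1 thus rose without either of these libraries, and 2 without shCopa 3.

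Compared per length, as CPM per kilobase of the longest coding transcript, the order of the members was much the same in both groups at the top and changed in the middle. In shCopa the highest were Abcc4 (64.0 ± 3.59), Abcf2 (63.3 ± 3.56), Abcf1 (50.7 ± 1.68) and Abce1 (41.7 ± 1.99), of which Abcc4 and Abcf2 lay within their spread. In shCon they were Abcf2 (54.6 ± 1.34), Abcf1 (49.7 ± 2.54), Abcc4 (43.8 ± 9.89) and Abce1 (32.6 ± 3.95), and the spread of Abcc4 took in the level of Abcf1 (SD, n = 3). Abcc2 stood at rank 18 of 33 in shCopa (3.95 ± 0.587 CPM per kilobase) and at rank 26 in shCon (0.553 ± 0.191). Abcc1 stood at rank 7 in shCopa and 12 in shCon and Abca3 at 10 in shCopa and 7 in shCon. The C subfamily made up 29.1% to 30.5% of the summed per-length level of the members in shCopa and 20.1% to 24.9% in shCon. Within it the largest per-length differences were those of Abcc4 and of Abcc1 (21.1 in shCopa and 10.4 in shCon), so the share rests mostly on these genes. The A subfamily made up 7.86% to 8.28% in shCopa and 12.3% to 14.7% in shCon, and the E and F genes 38.5% to 39.8% in shCopa and 36.6% to 39.9% in shCon. The sum itself was 420, 429 and 434 CPM per kilobase in shCopa and 360, 418 and 410 in shCon. The spread relative to the mean was larger in shCon than in shCopa in 27 of 33 members. The shCon spread includes shCon 1, which stood apart across all genes. The share over all genes was not computed, so this is not a trait shown for the family alone.

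**Figure D4:**
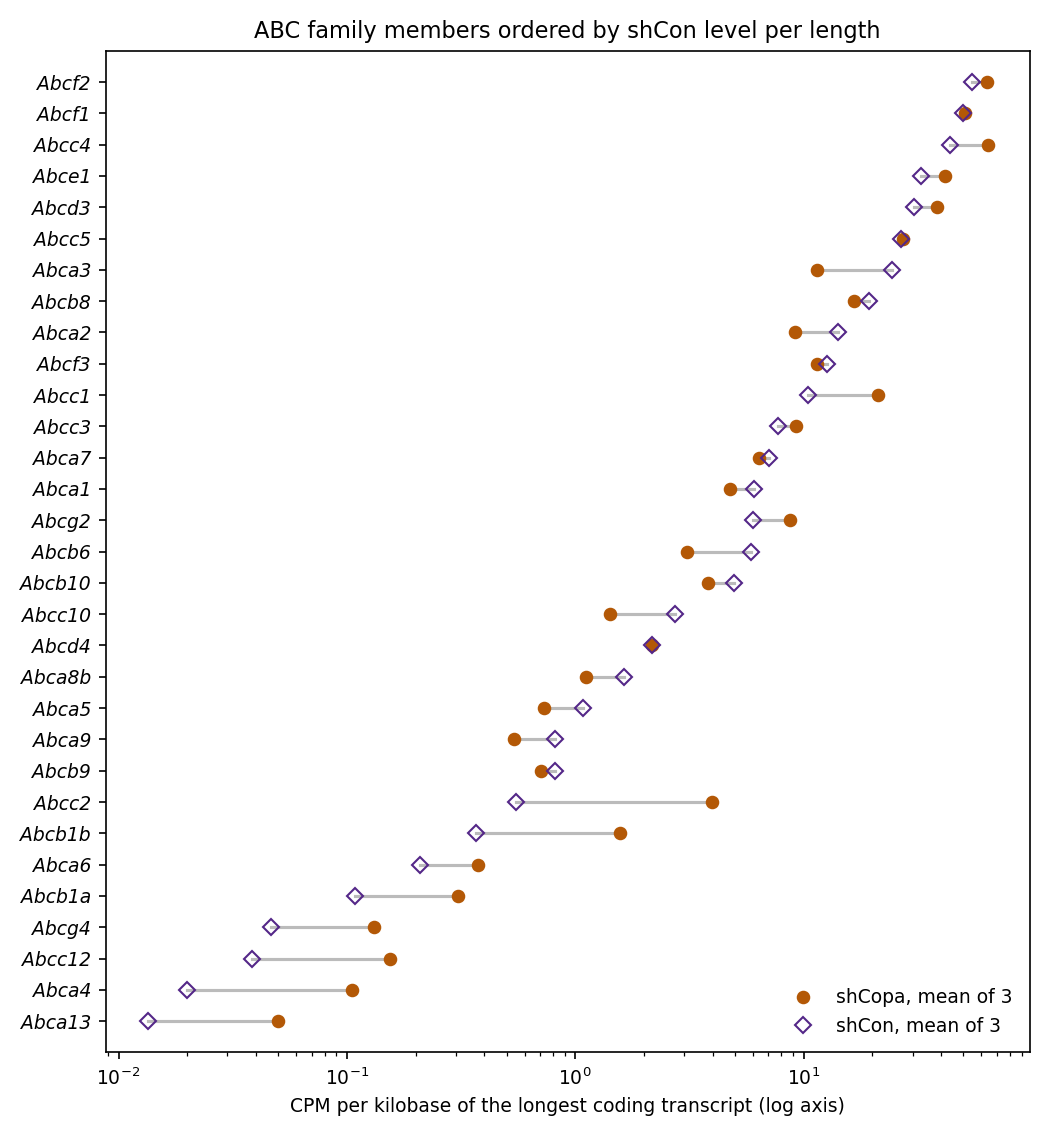
Mean level of 31 members in CPM per kilobase of the longest coding transcript on a log axis, filled circles for shCopa and open diamonds for shCon (n = 3 each), ordered by the shCon level. Abcc2 shows the largest ratio, 3.95 in shCopa and 0.553 in shCon.

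The 17 family genes below the count rule were Abca12, Abca14, Abca15, Abca16, Abca17, Abca8a, Abcb11, Abcb4, Abcb5, Abcc6, Abcc8, Abcc9, Abcd2, Abcg1, Abcg3, Abcg5 and Abcg8. Abca15, Abca16 and Abcb5 had no count in any library, and Abcd2 and Abcg3 had none in shCon and at most 4 in a shCopa library. The sulfonylurea receptor genes Abcc8 and Abcc9 had at most 9 and 2 counts, and Abcc6, whose human gene is mutated in pseudoxanthoma elasticum, at most 4.

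Of 15 receptors and factors known to control ABC genes, 12 were tested, 1 rose, 7 fell and 4 did not pass, with a median log2 fold change of -0.36. The shares over all genes were 18.2% higher and 18.4% lower. Nr1h4, the bile acid receptor FXR, was at 47.6, 51.0 and 53.8 CPM in shCopa, against 32.7, 38.6 and 33.3 CPM in shCon, and rose (0.54 ± 0.10; edgeR adjusted p = 0.00592). Srebf1, a lipogenic factor and a target of the oxysterol receptor LXR, was at 55.6, 60.6 and 52.9 CPM in shCopa, against 94.8, 82.2 and 77.5 CPM in shCon, and fell (-0.59 ± 0.11; adjusted p = 0.00493). Rxra, the shared partner of these receptors, fell by 0.47 on the log2 scale (adjusted p = 0.00716). The number that fell was 3 without shCopa 1, 4 without shCopa 2, 2 without shCopa 3 and 4 without shCon 2. Without shCon 1, 7 fell and 3 rose, where 4122 of all genes fell and 4317 rose. Of 10 genes of sterol acceptors and sterol handling 9 were tested, and 1 rose, 2 fell and 6 did not pass, beside the same shares over all genes. Soat1, which esterifies cholesterol for storage, was at 14.4, 12.6 and 14.6 CPM in shCopa, against 72.5, 62.8 and 64.8 CPM in shCon (log2 fold change -2.26 ± 0.11; edgeR adjusted p = 3.44e-05). Scarb1, a receptor for high-density lipoprotein, fell by 0.30 (adjusted p = 0.0381), and Apoe, an acceptor of cellular cholesterol, rose by 1.20 (adjusted p = 0.0115) at 2.86 CPM on average in shCopa and 1.24 CPM in shCon. Without shCon 1, 2 of this list rose and 5 fell, beside the same 4317 and 4122 of all genes.

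Of 11 genes that make or use glutathione, which MRP pumps carry with their conjugates, 3 rose, 2 fell and 6 did not pass, with a median log2 fold change of 0.04. Among all genes tested, 18.2% rose and 18.4% fell. Slc7a11, the cystine importer, was at 34.2, 33.8 and 36.2 CPM in shCopa, against 5.11, 9.62 and 10.7 CPM in shCon (2.03 ± 0.25; edgeR adjusted p = 0.000884). Gclm and Gclc, the subunits of the enzyme that limits glutathione synthesis, rose by 0.66 and 0.64 on the log2 scale (adjusted p = 0.00184 and 0.00312), while the glutathione transferase genes Gstm1 and Gstm5 fell by 0.69 and 0.70 (adjusted p = 0.00170 and 0.0249; these belong to a family of close copies). Without shCon 1, 6 of this list rose and 3 fell, where 4317 of all genes rose and 4122 fell. Of 14 other transporters of bile salts and organic anions 7 were tested. Slco3a1, an organic anion transporter, rose (0.78 ± 0.09; edgeR adjusted p = 0.000623), the chloride-bicarbonate exchanger Slc4a2 fell (-0.46 ± 0.08; adjusted p = 0.00372), and 5 did not pass. The bile salt carriers Slc10a1, Slc51a and Slc51b were too low to test.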

How the data were processed

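RNA was measured in 6 libraries of AY-mICC cells, 3 shCopa and 3 shCon, grouped by sample title. The deposited table holds the authors' estimated counts by Ensembl identifier, of which 10.6% to 11.9% per library are fractions. Per the labels' protocols, RNA was isolated with TRIzol and libraries were made with a standard mRNA kit and sequenced as read pairs. The build GRCm39 and the tools DESeq2, featureCounts, HTSeq, HISAT2 2.0.5 and Trimmomatic are named per the submitters' processing notes. Strand setting, annotation and the program behind the counts: not given in the sources used here, so reads of overlapping genes may be divided unevenly.

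Symbols came from GENCODE M21 for 52081 of 55414 identifiers; identifiers without one held 0.201% to 0.464% of counts. Estimated counts were rounded and fitted with edgeR 4.0.16 in R 4.3.3 (TMM scaling, filterByExpr, robust quasi-likelihood F test, Benjamini-Hochberg adjustment over 14807 genes, threshold 0.05). All 33 members passed the filter. Log2 fold changes give shCopa relative to shCon, and SE come from the F statistic. "Rose" and "fell" mark genes past the threshold. CPM use TMM-scaled library sizes. Levels per length use the longest coding transcript of GENCODE M21 (2410 to 16011 bases). Promoters are RefSeq's, build GRCm38.p6. The members and companion lists were chosen with earlier results of these data known, and lists were only counted. Named were family genes, Copa, Tap1, Tap2, Cftr and up to 3 genes of each companion list with the smallest adjusted p; Gclc, Gstm5 and the untested bile salt carriers were added after their values were seen. Some genes under this rule are not reported here by name; all counts, sums and fits include them. The steps were tested on simulated data with set changes. They recovered 17.9% of 1.5-fold, 62.7% of 2-fold and 93.9% of 4-fold changes, and 8 of 124 calls were false. Only 200 genes were changed, all above 1 CPM on average, whereas 5411 genes were called in the data. The adjusted threshold was therefore stricter in the simulation, and its rates do not carry over to these data or to members near the floor. A gene that did not pass may still have changed by a small amount. Alternatives were other scaling (RLE, upper quartile), filters, DESeq2 1.42.0, limma-voom 3.58.1, the replicate number as a block, a threshold of 0.01, each library left out and offsets (chosen after seeing the data) for transcript length and GC content.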

Additional observations from a re-analysis of the deposited data

How the results depend on the processing

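Of the 19 members that changed, 3 rose (Abcb1b, Abcc1 and Abcc2) and 5 fell (Abca2, Abca3, Abcb6 and Abcc10 among them) under all 15 alternatives, and the other 11 lost their call under at least 1. Copa kept its direction and its call under all 15. The number of members that rose was 5 with the replicate block, 4 at a threshold of 0.01 and 4 to 13 with 1 library left out, and the number that fell was 10 with the length and GC offsets and 5 to 12 with 1 library left out. Over all genes, 1590 rose and 1587 fell at a threshold of 0.01, and leaving out 1 library gave 1778 to 4317 higher and 1755 to 4122 lower genes, most without shCon 1. Counts over all genes are not given here for the block and the offsets. The member counts of these fits are therefore not separated from a table-wide change in calls. The median log2 fold change of the members lay between 0.00 and 0.07 with 1 library left out. The numbers were not treated as pairs, because no label says that a number marks a shared culture or day. Deviations from the group means correlated at r = -0.162, -0.0583 and -0.114 for same-numbered libraries. For differently numbered ones r was -0.113 to 0.225. With 3 libraries per group these values cannot exclude pairing.

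The reported values that turned sign belonged to members that had not passed: Abcc5 (0.00 with no low-count filter and with the offsets, and -0.13 to 0.12 with 1 library left out, lowest without shCon 1), Abcd4 (-0.02 with no low-count filter and -0.09 to 0.17 with 1 library left out), and Abca7 (0.03) and Abcb9 (0.04) with the offsets. The cause was not tested. Depth limits Abca4, Abca13, Abcc12 and Abcg4 most, each at 28 counts or fewer in every library.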
